A study of Mus musculus with 8 samples.

Results

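The 6 genes described here act at neurites and synapses: Rtn4rl2, Sema6b, Sez6, Gprin1, Wasf1 and Syt17. They were chosen because their deposited values were low in the libraries of trained mice, so their difference between trained and untrained mice is a description and carries no test. They are 6 of 24498 genes in the table, and all 6 entered the fits, which took the 12681 genes whose mean reached 10 normalized read counts.

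Growing axons and dendrites are steered by guidance cues and by inhibitors of growth that are read by receptors on the neuron surface. These receptors act on the actin skeleton, through Rac and the WAVE complex, and on heterotrimeric G proteins. The same molecules remain in the mature hippocampus, where they act on dendritic spines and on the number and strength of synapses.

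Dorsal hippocampi came from C57BL/6J males of 10 to 12 weeks that had received an adeno-associated virus in this region 3 weeks before, and their polyadenylated RNA was sequenced. The knockdown vector, AAV2/9.U6.shACSS2.CMV.EGFP, expresses a short hairpin RNA against Acss2, which makes acetyl-CoA from acetate, and EGFP from the CMV promoter. The control vector, AAV2/9.CMV.EGFP.polyA, has EGFP and no hairpin; its mice are called WT in the labels. The CMV promoter is not specific to neurons, and an effect of any hairpin cannot be told apart from one of Acss2 loss. There were 4 groups of 2 libraries: trained knockdown (KD.249 and KD.251, named by the end of the column name), untrained knockdown (KD.253 and KD.255), trained control (eGFP.250 and eGFP.266) and untrained control (eGFP.254 and eGFP.268). Trained mice met 3 objects in 3 trials of 6 min and were killed 30 min after training, and untrained mice were home cage controls. Whether 1 mouse or a pool made up a library is not stated in the labels, so p-values reflect only how libraries vary, which may be partly technical.

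Reads in genes numbered 6537749 to 9863728 in 6 libraries, against 1484318 in KD.251 and 272456 in KD.255. One read was worth 2.88 normalized read counts in KD.251 and 15.6 in KD.255, against at most 0.659 elsewhere. Acss2 had 25.6, 57.7, 25.0 and 15.6 normalized read counts in KD.249, KD.251, KD.253 and KD.255, the last a single read, against 58.2 to 87.4 in the 4 control libraries; KD.251 was just below the lowest control library. All neuron, CA1 and dentate granule markers were detected in every library. Choroid plexus markers summed to 71302 in eGFP.250 and 18522 in eGFP.254, against 707 to 3490 in the other 6 libraries. Thalamus and striatum markers also summed highest in eGFP.250, at 898 and 647, against at most 544 and 518 elsewhere.

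The start regions of 3 genes are shown because their trained and untrained libraries did not overlap and RefSeq (GRCm38.p6) has an entry for them; Wasf1 also has an entry, and Sez6 and Syt17 were not matched. Each sequence is the 250 bases before the annotated start, 5′ to 3′ on the gene's strand, with GC boxes (GGGCGG on either strand, which may overlap) in capitals. The first of 2 entries for Sema6b is shown; the second, at chr17:56133853-56134102, has a GC content of 59.2%, 1 GC box and 1 CCAAT match (either strand; 34.6% of windows of tested genes hold one). The windows shown lie on the minus strand at chr2:84886693-84886942 for Rtn4rl2, chr17:56140344-56140593 for Sema6b and chr13:54749875-54750124 for Gprin1.
Rtn4rl2: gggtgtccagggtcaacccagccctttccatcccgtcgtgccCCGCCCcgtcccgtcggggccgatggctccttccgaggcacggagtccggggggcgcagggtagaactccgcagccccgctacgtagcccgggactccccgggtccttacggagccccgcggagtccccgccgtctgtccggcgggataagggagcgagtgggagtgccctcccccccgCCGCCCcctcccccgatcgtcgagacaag
Sema6b: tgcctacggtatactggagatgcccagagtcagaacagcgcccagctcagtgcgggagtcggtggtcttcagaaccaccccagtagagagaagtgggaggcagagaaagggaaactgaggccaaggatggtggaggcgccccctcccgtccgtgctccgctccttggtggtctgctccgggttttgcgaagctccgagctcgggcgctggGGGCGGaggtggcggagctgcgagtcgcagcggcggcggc
Gprin1: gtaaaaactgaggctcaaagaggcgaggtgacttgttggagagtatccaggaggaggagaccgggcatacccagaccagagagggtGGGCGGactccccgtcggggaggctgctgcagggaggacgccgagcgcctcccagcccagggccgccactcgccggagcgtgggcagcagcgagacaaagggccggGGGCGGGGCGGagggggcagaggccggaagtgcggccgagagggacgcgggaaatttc
The GC box, the binding motif of Sp1, was present 2 times in the Rtn4rl2 window, 1 time in that of Sema6b and 3 times in that of Gprin1. It was also in 57.3% of the 12624 windows of tested genes, so its presence is common. The E-box CACGTG and the half-site TGACG of cyclic AMP response elements, searched on both strands, had no match in these 3 windows and were in 8.23% and 26.1% of the windows of tested genes. The GC content of the windows was 73.6% for Rtn4rl2, 66.0% for Sema6b and 68.8% for Gprin1, against a median of 60.0%.

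Among the surface receptors and ligands, Rtn4rl2 had the largest difference by training state of the 6 genes, averaged over vectors. Rtn4rl2 (GRCm38 chr2:84871924-84886710, minus strand) encodes a relative of the Nogo receptor that is anchored to the membrane by a lipid, binds the myelin-associated glycoprotein and limits axon growth. It had 70.6 and 69.2 normalized read counts in the trained knockdown libraries, against 218 and 124 in the untrained knockdown libraries. It had 66.2 and 63.1 in the trained control libraries, against 220.4 and 94.0 in the untrained control libraries. All 4 trained libraries lay between 63.1 and 70.6, below every untrained library, while the untrained libraries were spread widely, with KD.253 and eGFP.254 highest. The value of KD.255 rests on 8 reads, with a 95% exact Poisson interval of 53.7 to 245. The log2 difference, trained minus untrained, averaged over vectors was -1.18 (SE 0.29), and the trained mean was 41.0% of the untrained mean. In control-vector mice the difference was -1.14, and it was -0.53 without eGFP.254 and -1.75 without eGFP.268. In knockdown-vector mice it was -1.22.

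Sema6b (chr17:56123085-56140343, minus strand) encodes a transmembrane semaphorin, a guidance cue that binds plexin-A4. It had 141 and 156 normalized read counts in the trained knockdown libraries, against 299 and 264 in the untrained knockdown libraries. It had 186 and 159 in the trained control libraries, against 365 and 213 in the untrained control libraries. The trained and untrained libraries did not overlap, and the nearest pair were the control libraries eGFP.250 and eGFP.268. The log2 difference averaged over vectors was -0.81 (SE 0.20). It was -0.69 in control-vector mice, where it was -0.31 without eGFP.254 and -1.08 without eGFP.268, and -0.92 in knockdown-vector mice.

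Sez6 (chr11:77930800-77979048, plus strand) encodes a membrane protein with CUB and sushi domains that is cut by the protease BACE1 and shapes dendrites and excitatory synapses. It had 520.5 and 681 normalized read counts in the trained knockdown libraries, against 1053 and 918 in the untrained knockdown libraries. It had 737 and 731 in the trained control libraries, against 1328 and 1006 in the untrained control libraries. No trained library reached the lowest untrained one. The log2 difference averaged over vectors was -0.69 (SE 0.16), and it was -0.65 in control-vector and -0.72 in knockdown-vector mice.

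Gprin1 and Wasf1 act inside the neuron next to receptors or on actin. Gprin1 (chr13:54736671-54749874, minus strand) binds active alpha subunits of the Gi and Go class and promotes neurite outgrowth. It had 576 and 551 normalized read counts in the trained knockdown libraries, against 830.4 and 762 in the untrained knockdown libraries, and 554 and 575 in the trained control libraries, against 926 and 771 in the untrained control libraries. The 4 trained libraries were almost level and lay below all untrained libraries. The log2 difference averaged over vectors was -0.54 (SE 0.13), and it was -0.58 in control-vector and -0.50 in knockdown-vector mice. In the shallow library KD.255, Gprin1 rests on 49 reads, Sez6 on 59 and Sema6b on 17.

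Wasf1 (chr10:40883475-40938570, plus strand) encodes WAVE1, which links Rac to actin nucleation by the Arp2/3 complex in growing neurites and spines. It had 2279 and 2717 normalized read counts in the trained knockdown libraries, against 3041 and 2519.5 in the untrained knockdown libraries. It had 2361 and 2205 in the trained control libraries, against 3613 and 3466 in the untrained control libraries. In control mice the states were well apart, but in knockdown mice the trained library KD.251 exceeded the untrained library KD.255, both of which are shallow. The log2 difference was -0.63 (SE 0.19) in control-vector mice and -0.15 (SE 0.19) in knockdown-vector mice, with -0.39 (SE 0.14) averaged over vectors. In knockdown-vector mice it was -0.02 without KD.253, -0.03 without KD.249, -0.28 without KD.251, -0.29 without KD.255 and -0.42 without both shallow libraries.

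Syt17 (chr7:118380717-118448222, minus strand) encodes an atypical synaptotagmin with a pair of C2 domains, found at the Golgi and linked to axon growth. It had 122 and 95.2 normalized read counts in the trained knockdown libraries, against 133 and 93.3 in the untrained knockdown libraries. It had 74.5 and 87.5 in the trained control libraries, against 153 and 210.2 in the untrained control libraries. The control libraries did not overlap, whereas the knockdown libraries did; KD.255 rests on 6 reads, with a 95% exact Poisson interval of 34.2 to 203. The log2 difference was -1.14 (SE 0.30) in control-vector mice and -0.05 (SE 0.30) in knockdown-vector mice, with -0.60 (SE 0.21) averaged over vectors. In knockdown-vector mice it was 0.13 without KD.251, 0.20 without KD.253, -0.23 without KD.249, -0.30 without KD.255 and -0.13 without both shallow libraries.

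Both trained libraries lay below both untrained ones for all 6 genes in control-vector mice and for 4 of 6 in knockdown-vector mice. This describes the values on which the genes were chosen and is no check of their label. Among all tested genes, 14.3% had trained control libraries both below the untrained ones, and 14.0% had this in knockdown mice. Over all 8 libraries, 4 of 6 genes had every trained library below every untrained one, against 1.62% of tested genes; the genes were chosen on this contrast, so nothing is read from these counts. Without KD.251 and KD.255, all 6 were apart over the remaining 6 libraries, as were 7.52% of tested genes. The median log2 difference over the 6 genes was -0.64 averaged over vectors, -0.67 in control-vector and -0.61 in knockdown-vector mice, against medians over all tested genes of 0.03, 0.01 and 0.04. In a bulk sample, fewer cells of a type and less RNA per cell cannot be told apart.

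**Figure D1:**
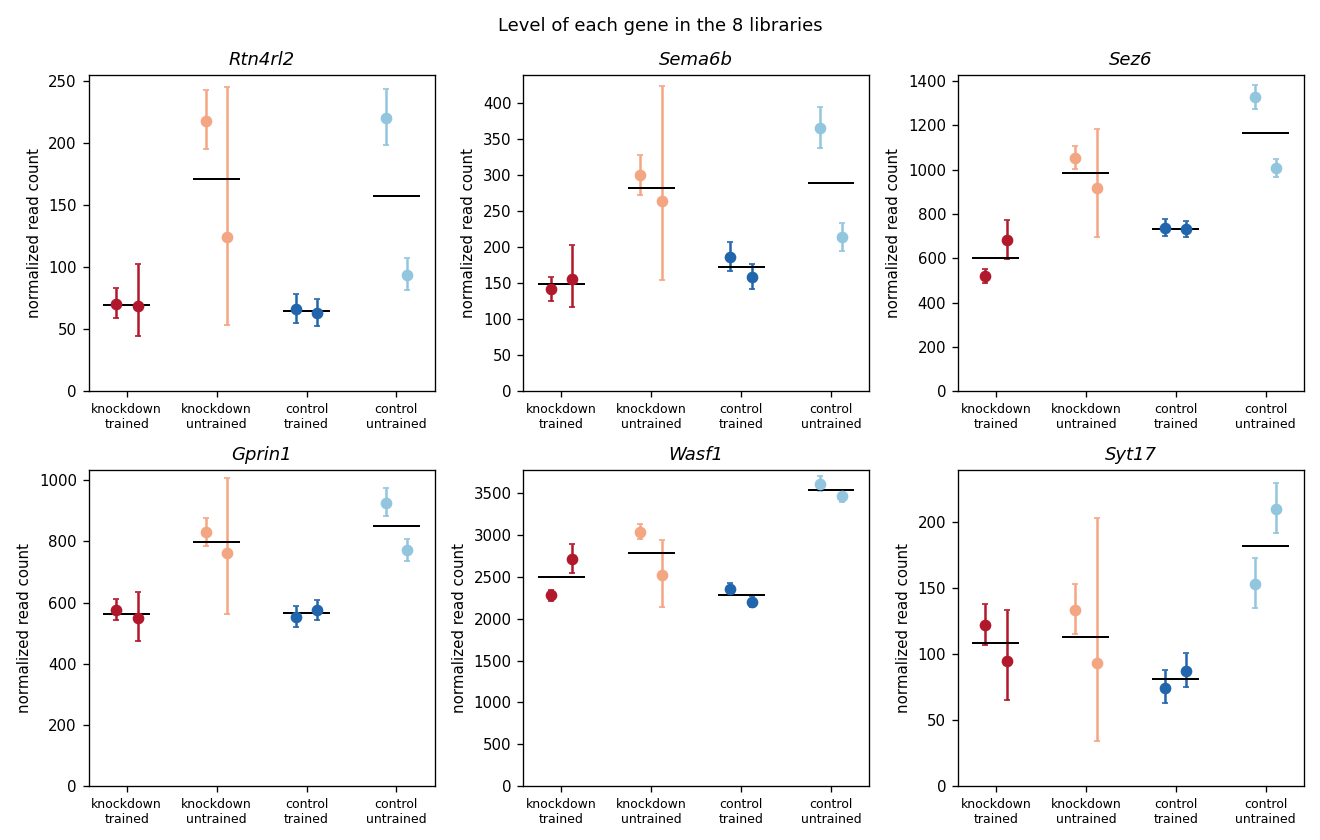
Normalized read counts of the 6 genes in each library (linear axes that start at 0), trained groups left of untrained ones within each vector. Points are libraries, vertical bars are 95% exact Poisson counting intervals and short lines are the means of 2 libraries; the trained control libraries lie below the untrained control libraries for all 6 genes.

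**Figure D2:**
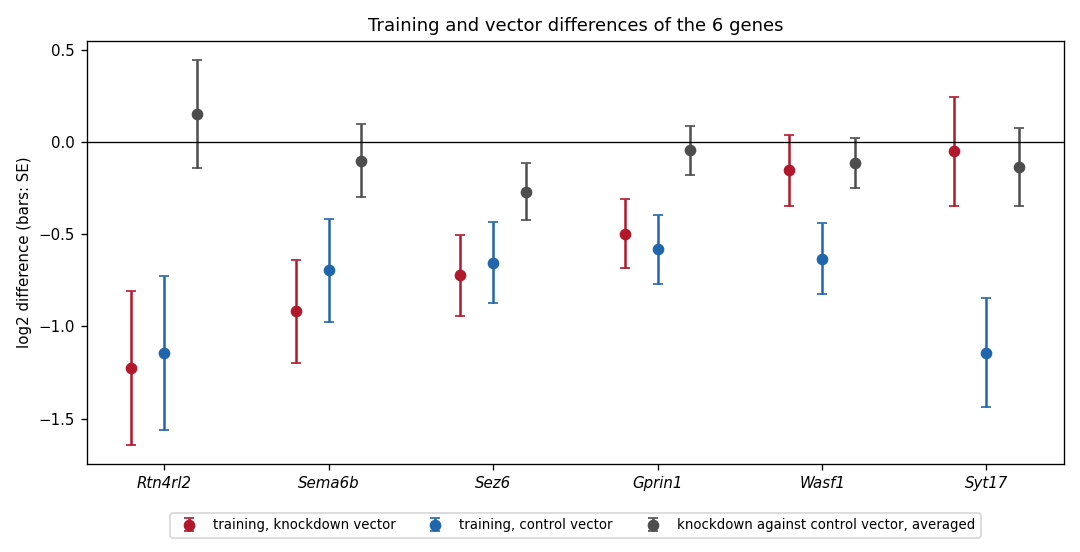
Log2 difference of each gene, trained minus untrained in knockdown-vector and in control-vector mice, and knockdown minus control averaged over training, with SE bars. The training values of Syt17 and Wasf1 are -0.05 and -0.15 in knockdown-vector mice, against -1.14 and -0.63 in control-vector mice.

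Per kilobase of exon, the order of the levels was Wasf1, Gprin1, Sez6, Rtn4rl2, Sema6b and Syt17 in both states. Means per kilobase were 838 for Wasf1, 130 for Gprin1 and 115 for Sez6 in trained libraries, against 1107, 189 and 186 in untrained libraries. They were 44.7 for Rtn4rl2, 40.4 for Sema6b and 18.2 for Syt17 in trained libraries, against 109, 71.9 and 28.3 in untrained libraries. Within each state the ranges of Gprin1 and Sez6 overlapped over libraries, as did those of Rtn4rl2 and Sema6b. Compared within a library, Gprin1 was above Sez6 in 3 of 4 trained and 3 of 4 untrained libraries, and Rtn4rl2 was above Sema6b in 3 of 4 trained and 4 of 4 untrained libraries. The other neighbours kept this order in every library.

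The comparison of the vectors did not enter the choice of the genes and could be tested. None of the 6 genes passed a limma adjusted p of 0.05 between knockdown and control vectors, and none passed with edgeR or DESeq2. Among all tested genes averaged over training, limma called 12 (0.0946%), edgeR 103 (0.812%) and DESeq2 128 (1.01%). In untrained mice limma called 0, edgeR 23 (0.181%) and DESeq2 55 (0.434%), and 571 had an unadjusted limma p under 0.05. In trained mice limma called 1 (0.00789%), edgeR 4 (0.0315%) and DESeq2 33 (0.26%). Averaged over training, the log2 difference of knockdown minus control ran from -0.27 for Sez6 (95% interval -0.62 to 0.08, adjusted p = 0.924, limma) to 0.15 for Rtn4rl2 (interval -0.51 to 0.82, adjusted p = 0.969, limma). The median was -0.11, against -0.03 over all tested genes. None of the 6 genes had its knockdown libraries all below or all above the control libraries, which 1.98% and 2.28% of tested genes had. The intervals of all 6 genes included 0 and all reached down to -0.34 or further, so they do not show that the vectors acted alike. Without eGFP.266 and eGFP.268 the value of Rtn4rl2 was -0.17. The median log2 deviation of neuron markers from the gene mean was -0.33 to -0.04 in knockdown and 0.02 to 0.27 in control libraries. The summed levels of these markers overlapped. Summed microglia markers were 891 to 1520 in knockdown and 684 to 890 in control libraries, while the medians of that list overlapped. The part of cell make-up in the vector values was not tested.

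Syt17 had the widest difference between vectors within a training state. In untrained mice its log2 difference, knockdown minus control, was -0.68 (SE 0.30, adjusted p = 0.816, limma), from 133 and 93.3 normalized read counts in knockdown libraries against 153 and 210.2 in control libraries. In trained mice it was 0.41 (SE 0.30, adjusted p = 1.00, limma), from 122 and 95.2 in knockdown libraries against 74.5 and 87.5 in control libraries. The difference of the training responses, knockdown minus control, was 1.09 (SE 0.42) for Syt17 and 0.48 (SE 0.27) for Wasf1, and between -0.22 and 0.08 for the other 4 genes; these values come from the contrast used to choose the genes and are given with no test. Leaving out 1 library moved the difference of responses from -0.69 (without eGFP.254) to 0.53 (without eGFP.268) for Rtn4rl2 and from -0.61 to 0.16, without the same libraries, for Sema6b. It took either sign for Sez6 and Gprin1 as well, so these values do not show that the responses of the 4 genes were alike. Without both shallow libraries it was 0.22 for Wasf1 and 1.01 for Syt17. Between vectors the dentate granule markers had the same signs as Syt17, with 6 of 6 lower in untrained knockdown libraries (median -0.40) and 6 of 6 higher in trained knockdown libraries (median 0.83), each against control libraries of the same training state. By training they were lower in control-vector mice (6 of 6, median -0.63) and higher in knockdown-vector mice (6 of 6, median 0.75), where the Syt17 value was -0.05. Their summed level was 3006 to 3208 in trained knockdown, 1602 to 2600 in untrained knockdown, 1583 to 2591 in trained control and 2472 to 3086 in untrained control libraries. Their median log2 deviation from the gene mean was lowest in eGFP.250 (-0.97) and the shallow KD.255 (-0.57), against 0.08 in eGFP.266 and 0.18 in KD.253. The CA3 markers were also lowest in KD.255 (-0.56) and eGFP.250 (-0.27). The part of the dentate granule markers in the Syt17 values was not tested.

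Other markers also differed by training state. Of the 5 CA1 markers, 4 were lower in trained libraries in the average over vectors (median log2 difference -0.55), with summed levels of 1078 to 1376 in trained and 1221 to 1744 in untrained libraries. Fibcd1, with the largest difference of the CA1 markers (-0.88), had 99.3 to 130.0 normalized read counts in trained and 164 to 279 in untrained libraries. The ranges of the other CA1 markers overlapped. Wfs1 went the other way (log2 difference 0.19), with 405 to 676 in trained and 311 to 792 in untrained libraries. All 10 oligodendrocyte markers were higher in trained libraries (median 0.68), with summed levels of 19206 to 29741 in trained and 11455 to 19923 in untrained libraries. Of the 5 endothelial markers 4 were lower, with summed levels of 387 to 467 in trained and 466 to 520 in untrained libraries, and 7 of 8 microglia markers were lower (median -0.29). Of the 10 neuron markers, 5 were higher and 5 lower (median -0.05). The library eGFP.254, highest of the 8 in 5 of the 6 genes, was also one of the libraries with high choroid plexus markers. No marker of these lists passed, and the part of cell make-up in the values of the 6 genes was not tested. The summed level of 10 immediate early genes was 3845 to 4235 in trained and 1325 to 2629 in untrained control libraries. In knockdown libraries the states overlapped, with 4030 to 5669 in trained and 3624 to 4627 in untrained libraries.

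**Figure D3:**
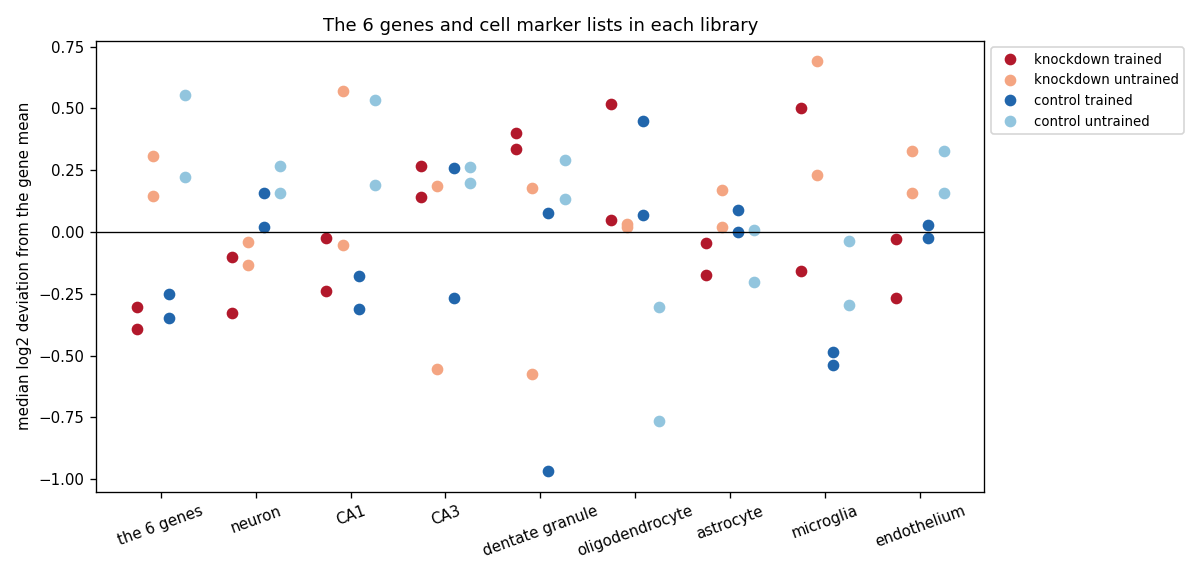
Median log2 deviation from the gene mean, over the 6 genes and over each cell-type marker list, 1 point per library, trained libraries left of untrained ones within each vector. Oligodendrocyte markers are higher, and CA1 markers mostly lower, in trained libraries.

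Transcript GC content was above the median of tested genes, 49.6%, in all 6 genes. It was 68.5% in Rtn4rl2, 63.5% in Sema6b, 60.5% in Gprin1, 59.4% in Sez6, 54.6% in Syt17 and 50.2% in Wasf1, with 99.9%, 99.3%, 96.6%, 94.6%, 76.0% and 53.5% of the 12346 genes with a value below them. Genes were split by GC content into 10 bins, and in the highest bin (57.8% to 71.3%, 1235 genes), 63.3% were lower in trained libraries averaged over vectors, with a median log2 difference of -0.11. In the lowest bin 25.8% were lower, with a median of 0.13. The median deviation of the highest bin was highest in the untrained libraries eGFP.254 (0.33) and KD.253 (0.21), the same libraries in which Rtn4rl2 was highest, and it was -0.06 and -0.13 in the untrained eGFP.268 and KD.255 and between -0.18 and 0.02 in the 4 trained libraries. With the GC trend removed within each library, an alternative chosen after seeing the data, the averaged log2 differences were -1.06 for Rtn4rl2, -0.72 for Sema6b, -0.65 for Sez6, -0.61 for Syt17, -0.49 for Gprin1 and -0.47 for Wasf1. These values were smaller in size than the uncorrected ones for Rtn4rl2, Sema6b, Sez6 and Gprin1, larger for Wasf1 and about level for Syt17. Over all genes in each fit, the median of this difference moved from 0.03 to -0.05 with the GC trend removed. That shift has the direction of the larger Wasf1 value. The removal also took out each library's mean deviation over all genes, which moves the log2 differences of all 6 genes by the same amount. The corrected and uncorrected values therefore differ by more than the GC trend. The part of GC content in the values was not tested further.

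**Figure D4:**
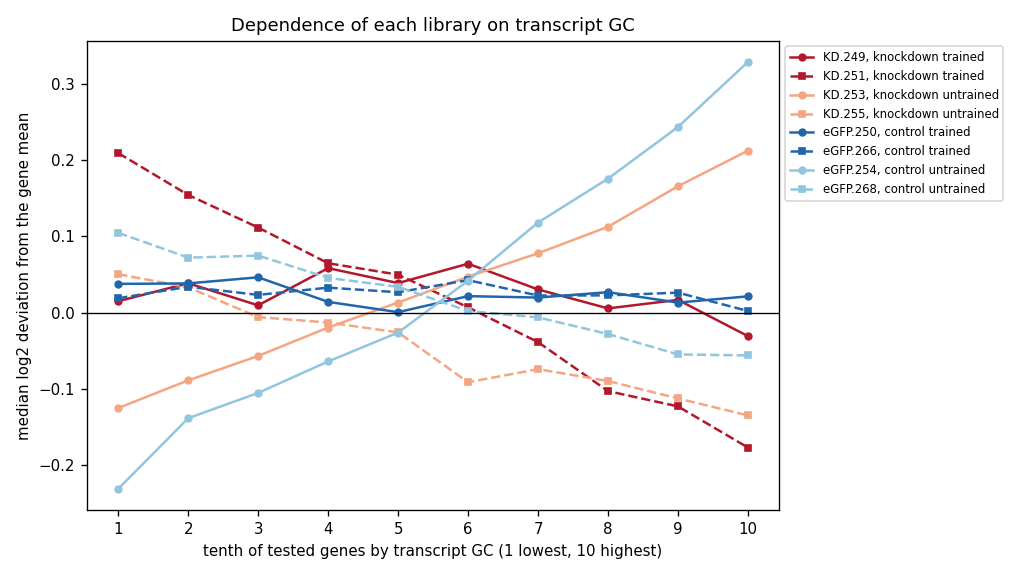
Median log2 deviation of genes in each bin of transcript GC content (x axis, bin 1 lowest), 1 line per library. In the highest bin the untrained libraries eGFP.254 and KD.253 stand highest, at 0.33 and 0.21.

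The related pathways were described from lists of 84 genes, of which 79 were tested. None of them passed in any of the 7 comparisons with limma, edgeR or DESeq2; at an unadjusted limma p under 0.05, between 1 and 5 did so per comparison. For averaged training these were 3 of 79 (3.80%), against 3.91% of all tested genes, and for training in knockdown-vector mice 5 of 79 (6.33%), against 4.48%. In control-vector mice they were 3 of 79 (3.80%), against 1.43%, and for the difference of responses 1 of 79 (1.27%), against 0.883%. Between vectors they were 2 averaged (2.53%, against 4.90%), 3 in untrained (3.80%, against 4.50%) and 1 in trained mice (1.27%, against 2.36%). Over all tested genes, DESeq2 called 2 (0.0158%) for averaged training and 4 (0.0315%) for training in control-vector mice, and limma and edgeR called 0 in the training comparisons. Averaged over vectors, 39 were higher and 40 lower in trained libraries, with a median log2 difference of -0.01. The Nogo receptor list had a median of -0.18 (9 tested), the G protein list -0.13 (9), the Sez6 and BACE1 list -0.06 (13), the WAVE and Arp2/3 list 0.00 (19), the synaptotagmin list 0.00 (14) and the semaphorin and plexin list 0.11 (15).

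Among the most abundant genes of each list, Ptprs, a receptor phosphatase for proteoglycans that inhibit axons, had 1564 ± 93.9 normalized read counts in trained and 1925 ± 184 in untrained libraries (SD, n = 4 each). Its log2 difference was -0.30 (adjusted p = 0.921, limma). The plexin Plxna2 had 697 ± 12.6 in trained and 841 ± 50.9 in untrained libraries (log2 difference -0.27, adjusted p = 0.921, limma). Sez6l, a paralog of Sez6, had 1305 ± 49.7 in trained and 1571 ± 103 in untrained libraries (log2 difference -0.27, adjusted p = 0.921, limma). Over the 4 most abundant genes of each list, the log2 differences ran from -0.30 for Ptprs to 0.19 for App, and none passed. Rtn4, the ligand Nogo itself, had 3927 ± 344 in trained and 3728 ± 221 in untrained libraries (log2 difference 0.07).

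In the WAVE and Arp2/3 list, which holds the partners of Wasf1, 15 of 19 genes were lower in trained control libraries, against 47.9% of all tested genes. In trained knockdown libraries 16 of 19 were higher and 3 of 19 lower, where 45.9% of all tested genes were lower. None passed the test. The list's median log2 deviation from the gene mean was 0.22 in the shallow KD.251, but -0.08 in KD.249, -0.04 in KD.253 and -0.08 in KD.255. It was -0.17 in eGFP.250 and 0.00 in eGFP.266, against 0.03 in eGFP.254 and 0.19 in eGFP.268. Cyfip2, a subunit of the WAVE complex, had 5470 ± 638 normalized read counts in trained and 5748 ± 813 in untrained libraries (SD, n = 4 each). Arpc2, a subunit of Arp2/3, had 2188 ± 263 in trained and 2135 ± 194 in untrained libraries. Syt1, the calcium sensor of vesicle fusion and the most abundant synaptotagmin of the list, had 11607 ± 1966 in trained and 11036 ± 1559 in untrained libraries.

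The 5 genes whose values most resembled the mean profile of the 6, over the 8 libraries and among 6983 genes with a mean of at least 100 normalized read counts, were Fkbp1a, Fam57b, Nova2, Ggt7 and Gne, with Pearson's r of 0.95, 0.95, 0.93, 0.93 and 0.93. The r of the 6 genes themselves with that profile, of which each is part, ran from 0.72 for Syt17 to 0.98 for Gprin1. Fkbp1a, an immunophilin that binds FK506, had 1044 and 1261 normalized read counts in trained knockdown libraries against 1662 and 1446 in untrained knockdown libraries, and 1288 and 1201 in trained control libraries against 1856 and 1543 in untrained control libraries. Fam57b, which is linked to ceramide synthesis, had 146 to 179 in the 4 trained libraries, against 202 to 366 in the 4 untrained libraries. Without KD.251 and KD.255, the r of the 5 genes was 0.92 to 0.96 and their ranks were 25 to 95. The libraries differ in depth and GC trend, and these correlations are descriptions over 8 points.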

How the data were processed

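The authors deposited normalized signal values (read counts scaled by library). In each library all values were integer multiples of 1 step (100% of values, relative tolerance 1e-06), from which whole reads were recovered. Per the submitters' processing notes, the tools were bcl2fastq 02.14.01.07, STAR 2.3.0, HTSeq 0.6.1, DESeq and bedtools, with build mm10; annotation and strand setting: not given in the sources used here. Of all reads, 34.5% to 39.5% per library were in 5 summary entries, which stayed out of library sizes and tests.

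The design allowed for normalized values or raw counts, and the main test was limma 3.58.1 (R 4.3.3, trend over intensity), run on log2(value + 1), for genes with a mean of at least 10, with all 4 groups in 1 fit. p-values were adjusted by Benjamini-Hochberg over all 12681 tested genes. Fold changes of genes with few reads can be understated on this scale. They can also be overstated where a shallow library has 0 reads, as 1 read was worth 15.6 normalized read counts in KD.255. Arpc1b and Syt10 had 0 reads in KD.255, with mean normalized read counts of 28.8 and 58.6. edgeR 4.0.16 and DESeq2 1.42.0 were run on the recovered reads: they called 103 and 128 genes for the averaged vector comparison, against 12 with limma. The fit was also run on simulated data with the same spread for all genes and libraries and no GC trend. These settings differ from the libraries here, so nothing about them is read from that run. Alternatives covered scaling, filters, pseudocounts, each library left out, both shallow libraries left out and GC trend removal, the last chosen after seeing the data. Intervals from reads cover counting error only.

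The 6 genes, the pathway and marker lists and the tests were chosen with earlier results of these data known. Named genes are the 6, the genes of each pathway list that passed or else its 4 most abundant, and the 5 most alike in profile; not all of these are described. Marker genes named beside a result were chosen after their values were seen. Gene coordinates and exon lengths are from GENCODE M21 (GRCm38) and start regions from RefSeq.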

Additional observations from a re-analysis of the deposited data

Results flagged for a closer look

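Syt17 was flagged because its knockdown and control libraries lay apart in opposite directions in the 2 training states: knockdown minus control was 0.41 on the log2 scale in trained mice and -0.68 in untrained mice. That difference was not tested, because Syt17 was chosen on the training contrast it is built from. Syt17 rests on 6 reads in KD.255 and 33 in KD.251. Their 95% exact Poisson intervals were 34.2 to 203 and 65.5 to 134 normalized read counts. Flags were looked for only among the 6 genes and the named pathway genes. The share of all tested genes with such a pattern was not counted, so nothing is read from the flags. Arpc2, a subunit of the Arp2/3 complex, was flagged in the same way, with 0.22 in trained and -0.20 in untrained mice. Its training difference, trained minus untrained, was 0.24 in knockdown-vector and -0.18 in control-vector mice. The limma test of the difference between the training responses of Arpc2 gave a log2 value of 0.42 (adjusted p = 1.00), which did not pass.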

How the results depend on the processing

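No paired analysis was possible because the columns carry no replicate numbers. No alternative made any of the 6 genes pass a test between the vectors. The median over the 6 genes for training in control-vector mice was -0.91 without eGFP.266 and eGFP.268, and in knockdown-vector mice -0.77 without both shallow libraries. Their median between vectors was 0.057 averaged over training and 0.071 in untrained mice with the GC trend removed, and -0.40 in untrained mice without eGFP.266 and eGFP.268. With the GC trend removed, the medians over all genes in the fit were 0.039 averaged over training and 0.072 in untrained mice. The removal of the GC trend also took out each library's mean deviation over all genes, so these shifts hold a recentring of the libraries as well. The parts of GC content and of the recentring were not tested.

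Signs between vectors turned in the following cases. Without eGFP.266 and eGFP.268, Rtn4rl2 was -0.17 averaged and -0.42 in untrained mice, Sema6b -0.37 in untrained mice, Syt17 0.037 averaged and Gprin1 0.023 in trained mice. With GC removed, Sema6b was 0.11, Gprin1 0.15 and Syt17 0.0041 averaged, and Gprin1 0.15 in untrained and 0.15 in trained mice. Without both shallow libraries, Gprin1 was 0.0021 and Syt17 0.080 averaged, Gprin1 0.029 and Wasf1 -0.0016 in trained mice. Sema6b in untrained mice was -0.018 with TMM and -0.0001 with DESeq2; Gprin1 in trained mice was 0.0043 with TMM, 0.0056 with edgeR and 0.0012 with DESeq2.

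Leaving out each library in turn, the count of pathway genes called ranged from 0 to 2 for averaged training, 0 to 3 for training in knockdown-vector mice, 0 to 2 for the averaged vector comparison, 0 to 5 in untrained mice and 0 to 2 for the difference of responses. All calls came from leaving out KD.253, which leaves the shallow KD.255 alone in its group, where Arpc1b and Syt10 had 0 reads. In that fit limma called 6.21%, 9.79%, 7.33%, 10.2% and 5.60% of all tested genes in these 5 comparisons, a larger share than of the pathway genes in each (2.53%, 3.80%, 2.53%, 6.33% and 2.53%). A library left alone in its group was assumed to vary like the other groups. Medians ranged from -0.88 to -0.49 for training in control-vector mice and from -0.40 to 0.0057 between vectors in untrained mice. Between vectors, averaged, Rtn4rl2 ranged from -0.15 to 0.46, Sema6b from -0.29 to 0.093 and Gprin1 from -0.11 to 0.021. In untrained mice Rtn4rl2 ranged from -0.42 to 0.80, Sema6b from -0.37 to 0.40 and Gprin1 from -0.22 to 0.045, and in trained mice Gprin1 from -0.035 to 0.029 and Wasf1 from -0.0016 to 0.25. A floor of 3 reads is 46.7 normalized read counts in KD.255, which limits what that library can show for Rtn4rl2 and Syt17.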
